A study of Mus musculus with 8 samples.

Results

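The antigen receptor loci are the stretches of the genome from which B cells and T cells assemble their immunoglobulin and T cell receptor genes. Their ATAC-seq peaks were taken by position, as every row of the deposited peak table that lay in 6 ranges of mm10. No count entered this rule, though these loci were chosen with earlier results of these data known. The ranges were chr12:113200000-116010000 for the immunoglobulin heavy chain, chr6:67555000-70730000 for the kappa light chain, chr16:19060000-19261000 for the lambda light chain, chr14:52425000-54225000 for the T cell receptor (TCR) alpha and delta chains, chr6:40890000-41560000 for TCR beta and chr13:19178000-19353000 for TCR gamma. They held 273 of the 57199 peaks, of which 110 lay in the heavy chain range, 9 in kappa, 0 in lambda, 103 in TCR alpha/delta, 44 in TCR beta and 7 in TCR gamma.

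The study compared regulatory T (Treg) cells with and without Flcn, the gene for folliculin, a lysosomal regulator of nutrient signalling. Splenic cells were sorted as CD45.2+, CD45.1-, CD4+ and Foxp3-YFP+ from mixed bone-marrow chimeras, so that the Treg cells of 1 bone-marrow donor were kept from each chimera. The donor was WT in 4 libraries and carried Foxp3-Cre and Flcn fl/fl in the other 4, called Flcn KO here, and the labels describe the libraries of a group as biological replicates. Cre was driven by Foxp3, so the deletion is designed for cells that have switched on Foxp3, after antigen receptor assembly in the thymus. The timing of the deletion was not tested here. The labels do not give the age, sex or strain of the mice, a batch, whether the WT donors carried Foxp3-Cre, or which cells the host still had.

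Each receptor chain is assembled by V(D)J recombination, in which the RAG recombinase joins 1 of many variable (V) segments to a joining (J) segment, in some loci with a diversity (D) segment between them. RAG cuts beside short signals made of a heptamer, a spacer and a nonamer, and a locus is cut only while its chromatin is open. T cells rearrange and express TCR genes, whereas complete heavy and light chain assembly belongs to the B lineage, where the V segments of the heavy chain open in early progenitors. In the heavy chain locus of the mouse the constant segments lie at one end, followed by J, D and a long array of V segments whose most distant members belong mainly to the Ighv1 family, also called J558.

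Sequence was available for 3 of the peaks, those that overlapped a promoter window of the RefSeq table for GRCm38.p6, the assembly behind mm10. It is shown because it lets the heptamer letters be seen inside accessible DNA, in 1 case at the edge of a V segment. Each line gives the part of the peak inside the promoter window of the named RefSeq gene, 5′ to 3′ on that gene's strand. Capitals mark the heptamer CACAGTG, which was searched on both strands and found in these stretches in its reverse form CACTGTG.
Gm40899: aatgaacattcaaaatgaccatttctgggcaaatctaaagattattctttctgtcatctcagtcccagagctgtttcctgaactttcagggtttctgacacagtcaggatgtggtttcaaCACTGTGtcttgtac
Gm30948: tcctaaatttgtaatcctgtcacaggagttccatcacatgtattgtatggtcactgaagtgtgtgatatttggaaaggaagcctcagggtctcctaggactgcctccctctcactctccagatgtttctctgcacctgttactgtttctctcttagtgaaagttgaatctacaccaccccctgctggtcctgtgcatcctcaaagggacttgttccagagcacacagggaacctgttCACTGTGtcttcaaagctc
Gm30214: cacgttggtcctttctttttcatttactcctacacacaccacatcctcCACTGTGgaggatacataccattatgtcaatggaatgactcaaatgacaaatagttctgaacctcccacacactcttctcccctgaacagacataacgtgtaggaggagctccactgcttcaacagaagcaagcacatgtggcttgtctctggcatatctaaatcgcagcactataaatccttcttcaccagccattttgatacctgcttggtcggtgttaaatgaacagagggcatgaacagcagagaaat

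The Gm40899 stretch is chr12:114764323-114764457 on the + strand, within a peak over the heavy chain segment Ighv1-23. Its heptamer ends at 114764449 and the segment starts at 114764450, with 0 bases between them, so that this peak covers the letters at the segment's edge where a recombination signal begins. The Gm30948 stretch is chr12:115262445-115262700 on the + strand, and its heptamer lies 4249 bp from the nearest heavy chain segment, Ighv8-7. The Gm30214 stretch is chr14:53039417-53039716 on the - strand, and its heptamer lies 2759 bp from the nearest TCR segment, Trav8d-2. The heptamer letters stood in 6.81% of the 32851 promoter windows of 300 bp in that table, so a match away from a segment's edge is a description of letters and not a site. The octamer ATGCAAAT, a motif of immunoglobulin V promoters, was searched on both strands, does not overlap the heptamer, and stood in 0 of the 3 stretches and in 1.74% of the windows. None of the 3 peaks was called different between the groups. The peak at Ighv1-23 had 2.99 ± 0.838 CPM (counts scaled to library size) in WT against 2.63 ± 1.19 in Flcn KO (both SD, n = 4), giving a log2 fold change of −0.17 (with SE 0.48).

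The library totals ranged from 2723344 to 5111728 counts over all peaks, and CPM values are counts relative to the TMM-scaled library total. Enough counts for a test were found at 223 of the 273 receptor peaks. The other 50 had mean levels between 1.15 and 2.80 CPM and are described only within summed values. Differences were tested with edgeR's quasi-likelihood test over all 47859 testable peaks, and a peak was called at a Benjamini-Hochberg adjusted p below 0.05. All 6 Treg marker genes had peaks, and those at Foxp3 summed to between 37.4 and 39.3 CPM in WT and between 38.5 and 50.2 CPM in Flcn KO. Peaks also lay at all 3 CD8 T cell marker genes and at 8 of 12 B cell marker genes, so having peaks is no check of cell identity. At Flcn itself, 2 of 4 peaks could be tested and 0 were called. Which exons the Cre removes is not stated, so they give no check of the genotype.

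Across the receptor peaks, 11 fell and 2 rose in Flcn KO. The share that fell was 4.93% of the 223 tested, where 1.02% of all tested peaks fell, and the share that rose was 0.897%, where 1.35% of all tested peaks rose. All 11 peaks that fell lay in the heavy chain range. In 24 receptor peaks every Flcn KO library was below every WT library, where this held for 3.56% of all tested peaks, and in 6 every Flcn KO library was above every WT library, where this held for 4.03%. An unadjusted p below 0.05 in the lower direction was reached by 34 receptor peaks, beside 5.99% of all tested peaks. The median log2 fold change was −0.10 over the receptor peaks and 0.00 over all tested peaks. Outside the heavy chain range 0 receptor peaks fell by edgeR, by the DESeq2 Wald test or by limma-voom, and 3 reached an unadjusted p below 0.05 by edgeR in the lower direction, 1 each in kappa, TCR alpha/delta and TCR beta.

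The summed level of the heavy chain locus was lower in Flcn KO, though not in every part of the locus. Its 110 peaks summed to 1065, 1221, 1118 and 1034 CPM in WT replicates 1 to 4 and to 859, 740, 950 and 841 CPM in Flcn KO replicates 1 to 4. The lowest WT library was above the highest Flcn KO library, with means of 1110 ± 81.7 against 847 ± 86.0 CPM (SD, n = 4) and a ratio of 0.764. Of its 92 tested peaks, 11 fell (12%) and 0 rose by edgeR, with 0 in the higher direction at an unadjusted p below 0.05 as well, 78 had a log2 fold change below 0, and the median was −0.39. In 21 of the 92 (22.8%) the groups' libraries lay apart in the lower direction, and in 2 in the higher direction. In bulk libraries such as these, fewer cells with an open site and less opening per cell cannot be told apart.

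**Figure D1:**
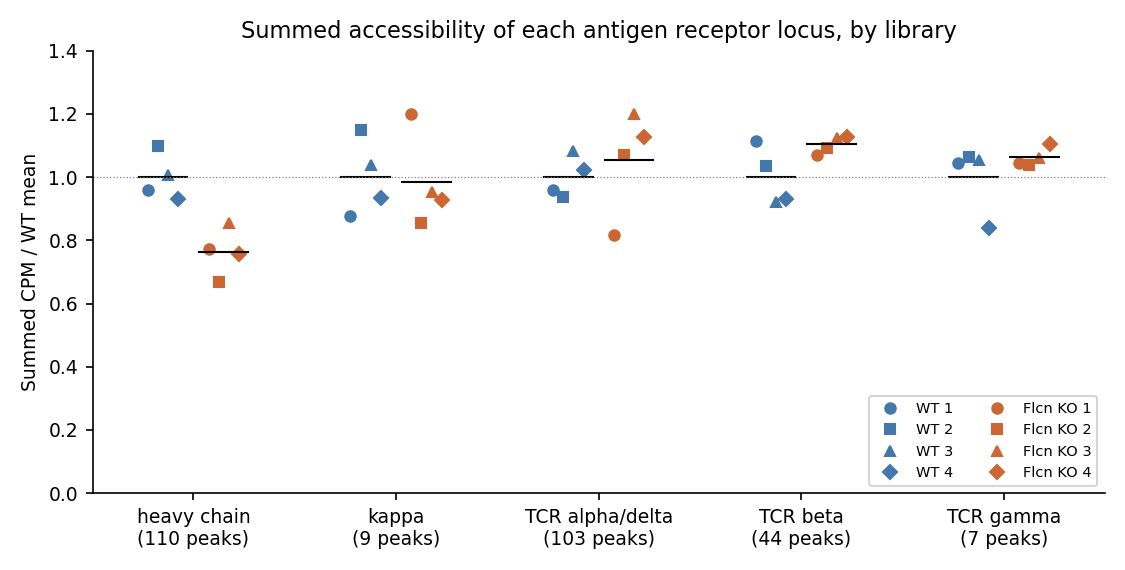
Summed CPM of each locus (vertical axis, divided by the mean of the 4 WT libraries) for every library, with WT in blue, Flcn KO in orange and black bars at the group means. The 4 Flcn KO libraries sit below the 4 WT libraries in the heavy chain locus, at a ratio of 0.764, and overlap them in kappa, TCR alpha/delta, TCR beta and TCR gamma.

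V segments of one family are near-identical copies, and how the authors treated reads that match several copies is not given in the sources used here, so the share of each peak's counts that belongs to the named segment is uncertain. The number of lower receptor peaks also rested on single libraries. It was 3 without WT replicate 2, 4 without Flcn KO replicate 2, 6 without Flcn KO replicate 4, 7 without WT replicate 1, and 13 without Flcn KO replicate 1. Under each of these all 11 peaks kept a lower value in Flcn KO, and every lower receptor peak again lay in the heavy chain range.

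The lower values lay in the V array, and the few peaks elsewhere in the range were not called. The 84 tested peaks nearest a V segment had a median log2 fold change of −0.44, with 11 lower, 0 higher and 74 below 0. Their summed level was between 968 and 1137 CPM in the WT libraries and between 662 and 879 CPM in the Flcn KO libraries, a ratio of 0.746. The 2 tested peaks nearest a constant segment, 1178 bp from Ighg3 and 33116 bp from Igha, had log2 fold changes of −0.18 and −0.25, and neither was called. The 6 tested peaks nearer to another gene, 5 by Tmem121 and 1 by Adam6b, had a median of 0.07 and a ratio of 1.04, with 0 called. The Adam6b peak, at chr12:113487709-113488066, lies between the V and D segments and had 6.32 ± 1.61 CPM in WT against 7.54 ± 1.27 in Flcn KO, a log2 fold change of 0.24 (by edgeR, SE 0.30 and adjusted p = 0.825). Whether the V peaks differed from these 8 in their change was not tested.

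Along the V array the lower values were spread widely rather than held at 1 site. When the range was divided into 10 windows of 281 kb from the constant end, the first 5 windows held 17 tested peaks with 0 lower and a median of −0.18, and the last 5 held 75 tested peaks with 11 lower (14.7%) and a median of −0.48. In the first 5 the WT libraries summed to 181, 210, 188 and 160 CPM and the Flcn KO libraries to 180, 149, 157 and 153 CPM, so the groups overlapped, at a ratio of 0.865. In the last 5 the WT libraries summed to 885, 1010, 930 and 875 CPM and the Flcn KO libraries to 679, 591, 793 and 688 CPM, with no overlap and a ratio of 0.743. Windows 1 and 2, with ratios of 0.986 and 1.19, held none of the peaks nearest a V segment, so the first 5 windows mix V peaks with others. Windows 3, 4 and 5, which held V peaks alone, had ratios of 0.839, 0.650 and 0.800, and window 6 had 0.855. The groups overlapped in each of these windows. The difference between the ends was not tested. Across the 92 tested peaks, the change and the distance from the constant end had a Pearson r of −0.38 and a Spearman rho of −0.39, and within the 84 V peaks both were −0.28. These are descriptions over peaks that share the same 8 libraries.

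**Figure D2:**
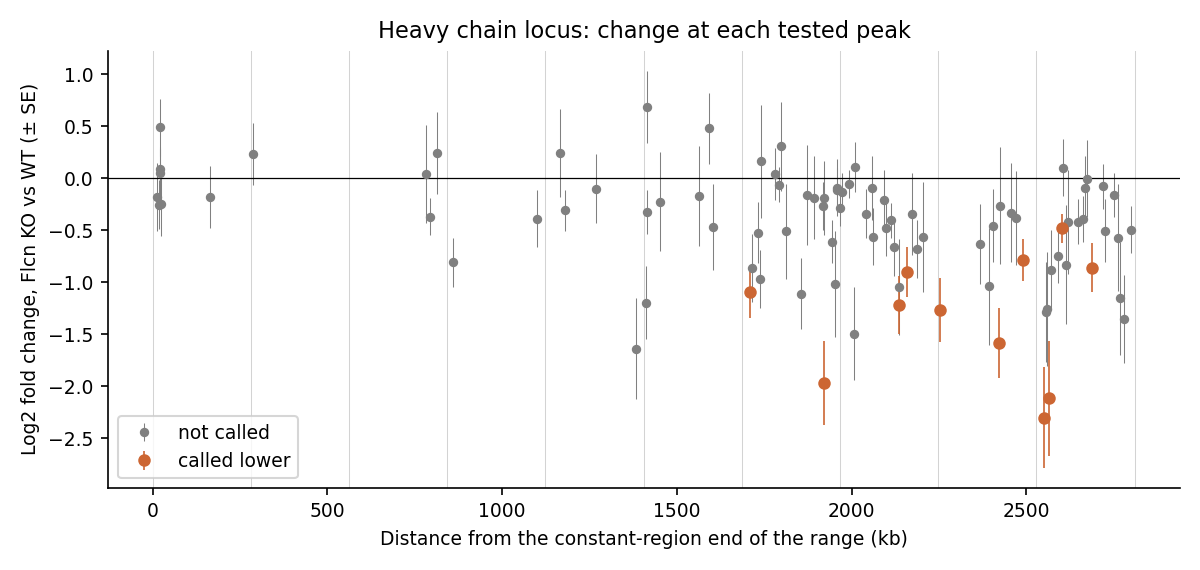
Log2 fold change of Flcn KO against WT (vertical axis, bars are ± SE) for each of the 92 tested heavy chain peaks by distance from the constant end of the range in kb, with the 11 peaks called lower in orange and the others in grey. The called peaks fall in the distal windows, and 78 of the 92 points lie below 0.

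The distal windows differed in size of the reduction. In window 9, which held 15 peaks, the WT libraries lay between 68.5 and 91.9 CPM and the Flcn KO libraries between 39.6 and 52.2 CPM, a ratio of 0.557, with 3 of 9 tested peaks lower. In window 10, at the far end, WT replicates 1 to 4 had 249, 271, 295 and 260 CPM and Flcn KO replicates 1 to 4 had 144, 178, 241 and 212 CPM, a ratio of 0.722, with 4 of 22 tested peaks lower. Windows 7 and 8 had ratios of 0.769 and 0.775 with 2 lower peaks each, and only in window 8 of these 4 did the groups overlap. Window 1, at the constant end, had a ratio of 0.986. For scale, 2066 windows of the same length elsewhere in the genome held at least 10 tested peaks and no receptor peak. Their median log2 fold changes had a middle value of 0.01, with 5% of windows at or below −0.20. The median of −0.54 in window 10 was matched or passed by 1 of these windows and its 4 lower peaks by 3 of them. The median of window 8 was matched or passed by 1 and that of window 7 by 35, and the 2 lower peaks of each by 28. Window 9, with 9 tested peaks, had fewer than the 10 required and was not compared. The genome windows were not matched for the number or level of their tested peaks. These comparisons are descriptions made after the heavy chain values were seen.

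**Figure D3:**
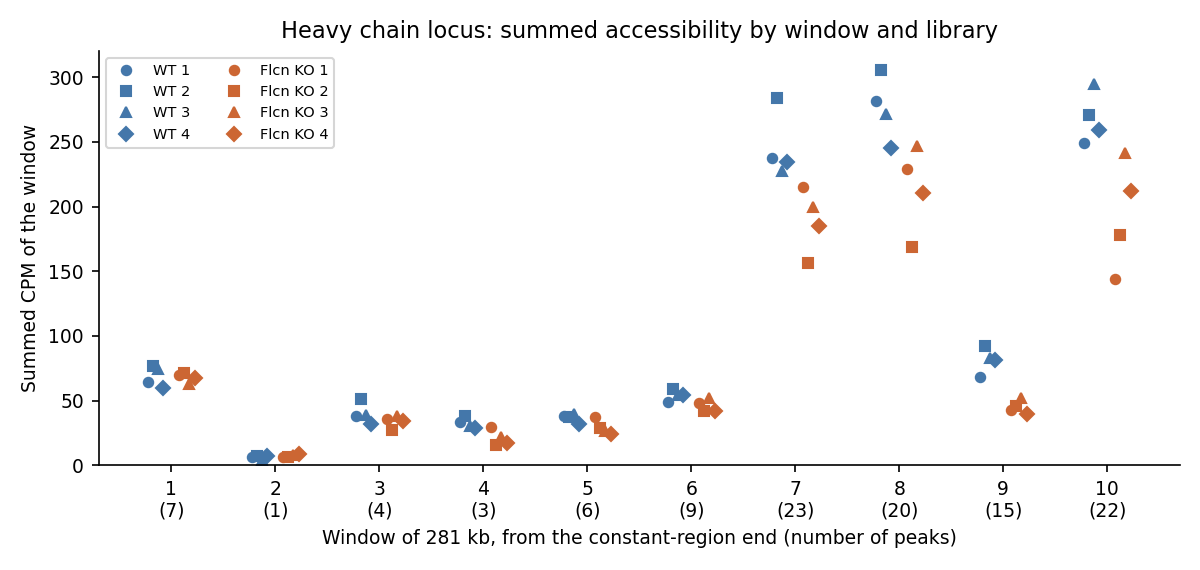
Summed CPM of the peaks in each of 10 equal windows of the heavy chain range (horizontal axis, numbered from the constant end, with the number of peaks in brackets) for each WT (blue) and Flcn KO (orange) library. Windows 7, 9 and 10 show the WT libraries above all Flcn KO libraries, while window 1 shows both groups at 59.5 to 76.5 CPM.

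Peaks over V segments and peaks between them both had median changes below 0. Among the 48 tested peaks that overlapped a V segment, 8 fell (16.7%), the libraries lay apart in the lower direction at 17 (35.4%), and the median was −0.49. Among the 36 that lay between V segments, 3 fell (8.33%), the libraries lay apart at 4 and the median was −0.36. The Ighv1 family had a median of −0.49 over 62 tested peaks with 10 lower, and the Ighv8 family had −0.42 over 15 tested peaks with 1 lower, all 15 below 0. By level, V peaks at or above the median level had a median change of −0.41 and those below it −0.46. Leaving aside the 11 called peaks, the other 73 tested V peaks had a median of −0.38, with 63 below 0. The called peaks held 16.6% of the WT heavy chain sum.

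The 11 lower peaks spanned 979 kb, from 114909801 to 115888313 on chromosome 12, and 8 of them overlapped a V segment. Together they had 179, 205, 186 and 165 CPM in WT replicates 1 to 4 and 101, 86.6, 112 and 91.4 CPM in Flcn KO replicates 1 to 4, a ratio of 0.531. In 10 of the 11 the groups' libraries did not overlap. The 11 were picked by the test on these same libraries, so that count and the ratio follow in part from the choice. All 102 peaks nearest a V segment had a ratio of 0.746, and those without the 11 had 0.793. The 11 peaks are described from the proximal to the distal end.

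At Ighv1-38, a V pseudogene, the peak chr12:114909801-114910199 had 13.7, 28.6, 21.2 and 13.8 CPM in WT against 10.2, 6.95, 10.9 and 7.62 in Flcn KO. WT replicate 2 was the highest library and all Flcn KO libraries were below all WT libraries. The log2 fold change was −1.09 (by edgeR, SE 0.25 and adjusted p = 0.00876), and the call was lost without WT replicate 2 (adjusted p = 0.122) or Flcn KO replicate 2 (adjusted p = 0.0539). The peak chr12:115121939-115122286, 1898 bp from Ighv1-50, had 10.8, 8.48, 6.63 and 3.94 CPM in WT against 2.35, 2.14, 1.99 and 0.762 in Flcn KO. The counts behind it were between 16 and 52 in WT and between 2 and 12 in Flcn KO. Its log2 fold change was −1.97 (by edgeR, SE 0.40 and adjusted p = 0.00309). It stayed called without any 1 library and missed the threshold under limma-voom (adjusted p = 0.0577).

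Peaks over Ighv1-59 and Ighv1-61 lie close together. The Ighv1-59 peak, chr12:115334867-115335325, had 12.9, 21.0, 10.2 and 15.3 CPM in WT against 7.63, 7.48, 3.48 and 6.86 in Flcn KO. All its Flcn KO libraries were below its lowest WT library, and the log2 fold change was −1.22 (by edgeR, SE 0.28 and adjusted p = 0.00844), lost without WT replicate 2 (adjusted p = 0.0964) or Flcn KO replicate 3 (adjusted p = 0.0555). The Ighv1-61 peak, chr12:115358963-115359409, had 18.3, 21.0, 16.3 and 15.3 CPM in WT against 13.7, 7.48, 6.46 and 9.91 in Flcn KO. Flcn KO replicate 1 came nearest to WT, and the log2 fold change was −0.90 (by edgeR, SE 0.24 and adjusted p = 0.0312). That call ended when any 1 library other than WT replicates 3 and 4 and Flcn KO replicate 1 was left out (adjusted p between 0.0612 and 0.145).

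Farther along, the peak chr12:115452560-115452983, 5850 bp from Ighv1-62-2, had 9.13, 17.4, 9.69 and 8.86 CPM in WT against 5.08, 2.67, 4.97 and 6.10 in Flcn KO. WT replicate 2 stood far above the other WT libraries, and the groups did not overlap. The log2 fold change was −1.27 (by edgeR, SE 0.31 and adjusted p = 0.0153), lost without WT replicate 2 (adjusted p = 0.176) or Flcn KO replicate 2 (adjusted p = 0.0815). The Ighv1-69 peak, chr12:115622947-115623361, had 10.8, 11.2, 8.16 and 6.89 CPM in WT against 3.52, 1.60, 3.98 and 3.05 in Flcn KO. The lowest WT library was well above the highest Flcn KO library, and the log2 fold change was −1.59 (by edgeR, SE 0.34 and adjusted p = 0.00441). This peak stayed called in every alternative fit.

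The Ighv1-70 peak, chr12:115691710-115692148, had 17.4, 21.0, 21.9 and 22.6 CPM in WT against 12.5, 12.8, 12.4 and 9.91 in Flcn KO. Flcn KO replicate 4 was below the other 3 Flcn KO libraries, the groups did not overlap, and the log2 fold change was −0.78 (by edgeR, SE 0.20 and adjusted p = 0.0265). Its call was lost when replicate 2, 3 or 4 of either group was left out, at adjusted p between 0.0524 and 0.0893. The peak chr12:115749604-115749936, 7098 bp from Ighv1-71, showed the largest fold difference of the 11. It had 6.23, 5.35, 5.1 and 4.43 CPM in WT against 0.782, 0.534, 1.49 and 1.52 in Flcn KO, from 18 to 30 counts against 2 to 6. The groups were far apart, with a log2 fold change of −2.30 (by edgeR, SE 0.48 and adjusted p = 0.00399), and the call held in every alternative that could be fitted.

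The last of the lower peaks lay toward the distal end. The Ighv8-13 peak, chr12:115765052-115765451, was the 1 lower peak outside the Ighv1 family and had 8.72, 4.91, 2.55 and 3.44 CPM in WT against 1.56, 0.534, 1.99 and 0 in Flcn KO. WT replicate 1 was highest, Flcn KO replicate 4 had 0 counts, and the log2 fold change was −2.12 (by edgeR, SE 0.55 and adjusted p = 0.0275). Its call was lost under limma-voom (adjusted p = 0.133) and without WT replicate 1 (adjusted p = 0.241), WT replicate 2 (adjusted p = 0.0787), Flcn KO replicate 2 (adjusted p = 0.104) or Flcn KO replicate 4 (adjusted p = 0.0751). The Ighv1-74 peak, chr12:115802448-115802925, was the strongest of the 11, with 55.6, 50.0, 67.3 and 52.2 CPM in WT against 34.8, 37.9, 50.2 and 38.1 in Flcn KO. Flcn KO replicate 3 overlapped the WT libraries, and the log2 fold change was −0.48 (by edgeR, SE 0.14 and adjusted p = 0.049). This call stood at the threshold: without any 1 of the libraries other than Flcn KO replicate 3 it was lost, at adjusted p between 0.0577 and 0.219, and with no filter, the stricter filter, the DESeq2 Wald test or limma-voom it missed as well, at adjusted p between 0.0507 and 0.069. The Ighv1-79 peak, chr12:115887856-115888313, had 15.8, 16.5, 17.3 and 18.2 CPM in WT against 8.99, 6.41, 13.9 and 7.62 in Flcn KO. The WT libraries were close together and above every Flcn KO library, with a log2 fold change of −0.86 (by edgeR, SE 0.24 and adjusted p = 0.0422). Leaving out any 1 library other than Flcn KO replicate 3 ended the call, at adjusted p between 0.0551 and 0.17.

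**Figure D4:**
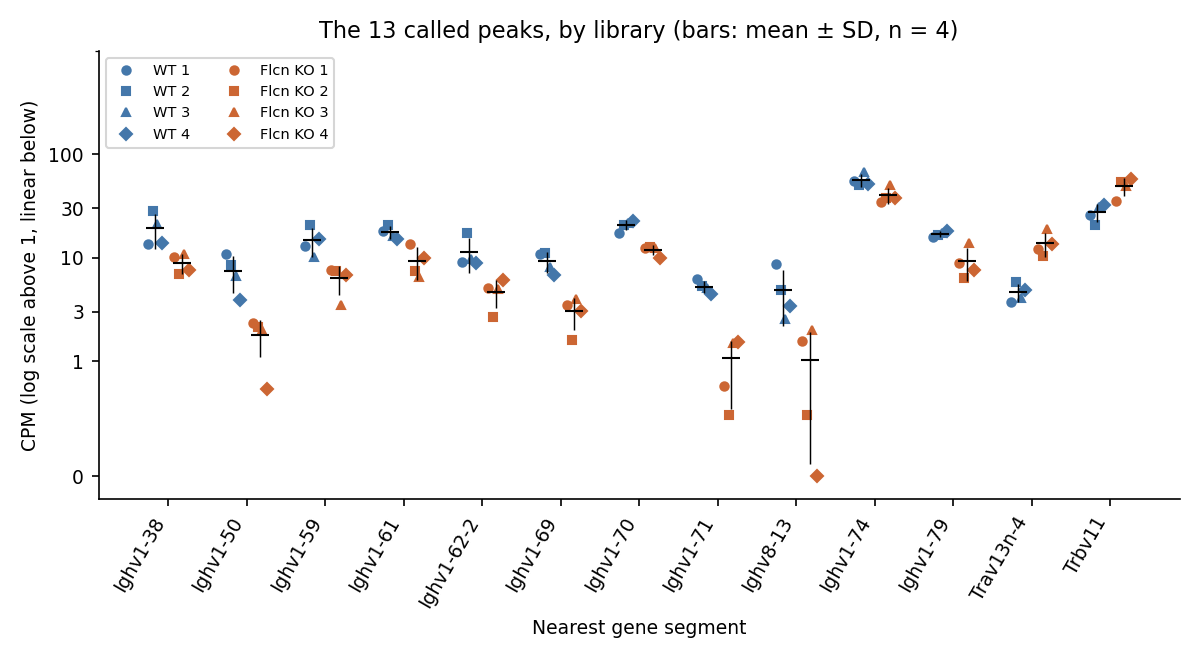
CPM of the 13 called receptor peaks (vertical axis, logarithmic above 1 CPM and linear below) in each WT (blue) and Flcn KO (orange) library, with bars for mean ± SD over 4 libraries, named by the nearest gene segment. The 11 heavy chain peaks are lower in Flcn KO, with overlapping libraries at Ighv1-74, while the peaks at Trav13n-4 and near Trbv11 are higher.

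Some strong V peaks of the same stretch were not called. The peak chr12:115193499-115193944, by Ighv1-54 and within the span of the lower peaks, had 69.3, 79.9, 70.9 and 56.1 CPM in WT against 69.8, 45.4, 78.1 and 73.9 in Flcn KO. The groups overlapped fully, with a log2 fold change of −0.05 (by edgeR, SE 0.14 and adjusted p = 0.93). The peak chr12:114990872-114991310, by Ighv1-47, had 41.0 ± 6.61 CPM in WT against 38.8 ± 11.5 in Flcn KO, a log2 fold change of −0.06 (with SE 0.17). Just outside the threshold, and named after its values were seen, the peak chr12:114059599-114060017 by Ighv14-3 had 18.3, 20.1, 17.3 and 19.2 CPM in WT against 16.4, 6.95, 9.94 and 8.38 in Flcn KO (log2 fold change −0.81 by edgeR, SE 0.23 and adjusted p = 0.0549). All its Flcn KO libraries were below its WT libraries.

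The peaks beside the heavy chain locus were not called, and the summed levels of the cell type markers overlapped between the groups. Within 100 kb of the range, 11 tested peaks before its start, by Crip2, Mta1 and Tedc1 among others, had a median log2 fold change of 0.02, and 5 after its end, by Vipr2 and Zfp386, had 0.10, with 0 called on both sides. B cell markers had peaks at 8 genes, and Ms4a1, Cd79b and Fcer2a were among the markers with none. Their summed level was between 93.1 and 122 CPM in WT and between 104 and 131 CPM in Flcn KO, and its part in the heavy chain values was not tested. The genes in this sum differed in direction. The mean was higher in Flcn KO at Cd79a, Blk, Blnk, Cr2 and Spib and lower at Pax5, Ebf1 and Cd22. Blk, which was also in the gamma-delta list, had 25.1 ± 6.17 CPM in WT and 34.8 ± 8.31 in Flcn KO. Of the 15 tested B cell marker peaks 1 fell (6.67%), where 1.02% of all tested peaks fell. It lay at Cd22, an inhibitory B cell receptor partner, and went from 8.63 ± 1.92 to 3.57 ± 1.16 CPM. The 8 T cell markers summed to between 792 and 952 CPM in WT and between 808 and 976 CPM in Flcn KO, and the 6 Treg markers to between 1317 and 1421 CPM and between 1352 and 1579 CPM. Among the 71 tested peaks of Treg markers 1 rose at Ikzf2 (1.41%) and 1 fell at Ctla4 (1.41%). Both shares were near those of all tested peaks, of which 1.35% rose and 1.02% fell. The groups overlapped for CD8 T cell markers (45.3 to 62.5 and 43.0 to 65.2 CPM), gamma-delta T cell markers (51.5 to 66.0 and 57.2 to 90.1 CPM), NK cell markers (39.3 to 57.3 and 47.0 to 78.8 CPM) and myeloid markers (15.2 to 25.6 and 11.2 to 17.6 CPM). Among only 6 tested peaks of NK markers 2 rose at Klrk1 (33.3%) and 1 fell at Klrb1c (16.7%), beside the same 1.35% and 1.02%.

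The light chain loci held few peaks and 0 called ones. The kappa range, the longest of the 6, held 2.83 peaks per Mb, where the heavy chain range held 39.1 and TCR beta 65.7, and the lambda range held none. The kappa peaks summed to 86.6, 113, 102 and 92.0 CPM in WT against 118, 84.2, 94.0 and 91.4 in Flcn KO, a ratio of 0.984. Both groups covered the same range, and the 6 tested peaks had a median log2 fold change of −0.07. Most of this signal came from the J end of the locus. The peak chr6:70709318-70709729, by Igkv3-1, had 40.9 ± 3.68 CPM in WT against 39.5 ± 5.30 in Flcn KO (log2 fold change −0.04, SE 0.14). The peak chr6:70714266-70714681 lies in the interval between V and J segments, which is known to hold the Cer and Sis elements that shape V segment use, and had 30.6 ± 5.85 against 28.4 ± 5.18 CPM (log2 fold change −0.11, SE 0.17).

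Weak kappa peaks were less precise. The peak chr6:70725634-70725934, 501 bp from the constant segment Igkc, had 3.25 ± 1.19 CPM in WT against 1.56 ± 1.14 in Flcn KO, a log2 fold change of −0.98 whose SE was 0.54 (edgeR adjusted p = 0.462). A peak by Igkv2-109, chr6:68305339-68305661, had 3.93 ± 1.09 against 1.59 ± 0.978 CPM, a log2 fold change of −1.31 (by edgeR, SE 0.51 and adjusted p = 0.212). At these levels the libraries of a group differed widely, and neither difference passed the test. The peak chr6:70103239-70103630, by Igkv8-31, had 8.93, 10.7, 3.57 and 4.92 CPM in WT against 26.8, 5.61, 5.97 and 4.57 in Flcn KO. Flcn KO replicate 1 alone was high there, and the log2 fold change of 0.66 (by edgeR, SE 0.54 and adjusted p = 0.698) became −0.38 without it.

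The TCR loci, which T cells use, were accessible in both groups, and 2 of their tested peaks were called, both higher in Flcn KO. The TCR alpha/delta peaks summed to 568, 553, 640 and 604 CPM in WT against 483, 632, 709 and 666 in Flcn KO. Flcn KO replicate 1 was the lowest library and Flcn KO replicate 3 the highest, and the ratio was 1.05. Of 81 tested peaks 1 rose (1.23%) and 0 fell, with a median log2 fold change of 0.02. Of all tested peaks 1.35% rose and 1.02% fell, so this count lies near those shares. The medians were 0.02 over 71 peaks nearest V segments and 0.23 over 9 nearest J segments, with 0 of the latter called. The change showed little order along the locus, with a Pearson r of 0.16 and a Spearman rho of 0.17 between change and position over the 81 peaks.

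The peak that rose in TCR alpha/delta overlapped Trav13n-4, a V segment of the alpha chain, at chr14:53362103-53362469. It had 3.74, 5.80, 4.08 and 4.92 CPM in WT against 12.1, 10.4, 18.9 and 13.7 in Flcn KO, from 16 to 26 counts against 36 to 76. Every Flcn KO library was above every WT library, and the mean went from 4.63 ± 0.923 to 13.8 ± 3.66 CPM, 2.98-fold (log2 fold change 1.57 by edgeR, SE 0.28 and adjusted p = 0.000616). The call was kept in all 16 alternative fits. Trav13n-4 belongs to an array that has been duplicated, and its related copies gave smaller values that were not called. The peaks by Trav13d-4 at 53072476 and 53073157 had log2 fold changes of 0.71 (by edgeR, SE 0.30 and adjusted p = 0.271) and 0.32 (with SE 0.28), and the peak by Trav13-4-dv7 at 53757783 had 0.22 (with SE 0.40). A further peak by Trav13n-4 itself, at 53363994, had 10.0 ± 3.5 CPM in WT against 13.9 ± 4.84 in Flcn KO. Reads that match more than 1 of these copies could be split between them, which leaves the identity of the segment uncertain.

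At the constant end the peak chr14:54222199-54222820, by Trac, which encodes the constant part of the TCR alpha chain, had 66.6, 54.2, 52.5 and 45.3 CPM in WT against 46.1, 64.1, 49.7 and 54.1 in Flcn KO. The libraries were mixed, with a log2 fold change of −0.04 (with SE 0.13). The strong V peak chr14:53134719-53135156, by Trav11n, had 30.9 ± 2.75 against 30.6 ± 11 CPM, a log2 fold change of −0.02. Its mean was close between the groups while the Flcn KO libraries ran from 18.4 to 41.5 CPM. The peak chr14:53683385-53683742, by Trav4-4-dv10, had 9.75 ± 2.76 against 15.9 ± 4.74 CPM (log2 fold change 0.70 by edgeR, SE 0.25 and adjusted p = 0.166), and the peak by Trav13-5 at 53795166 had 20.1 ± 4.64 against 16.99 ± 4.68 CPM.

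TCR beta was the densest of the loci. Its peaks summed to 863, 803, 714 and 722 CPM in WT against 830.0, 847, 872 and 875 in Flcn KO, a ratio of 1.10 with overlapping libraries. Of 39 tested peaks 1 rose (2.56%) and 0 fell, where 1.35% of all tested peaks rose and 1.02% fell. The median log2 fold change was 0.11. The peak that rose, chr6:41103954-41104443, lay 2362 bp from Trbv11, a V pseudogene. It had 25.7, 21.0, 31.1 and 32.5 CPM in WT against 35.6, 53.4, 49.7 and 57.2 in Flcn KO, so the groups did not overlap. The log2 fold change was 0.82 (1.78-fold, by edgeR, SE 0.16 and adjusted p = 0.00175), kept in all 16 alternative fits.

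The strongest receptor peak of all was not called. It lies at chr6:41554275-41555116, between Trbc2 and Trbv31, the interval known to hold the TCR beta enhancer, and had 223, 202, 172 and 161 CPM in WT against 221, 174, 215 and 207 in Flcn KO. The groups overlapped, with a log2 fold change of 0.11 (by edgeR, SE 0.10 and adjusted p = 0.726). Beside it, the peak chr6:41553329-41553684 had 63.9, 46.2, 53.0 and 38.4 CPM in WT against 60.03, 64.9, 76.6 and 66.7 in Flcn KO (log2 fold change 0.41 by edgeR, SE 0.13 and adjusted p = 0.102). Most Flcn KO libraries were higher there, yet the peak missed the threshold. The peak chr6:41112908-41113677, by Trbv12-1 and near the Trbv11 peak, had 83.9 ± 2.77 against 87.1 ± 13.5 CPM, a log2 fold change of 0.05. The 4 tested peaks by trypsin genes, which lie within the TCR beta range, gave 0 calls.

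**Figure D5:**
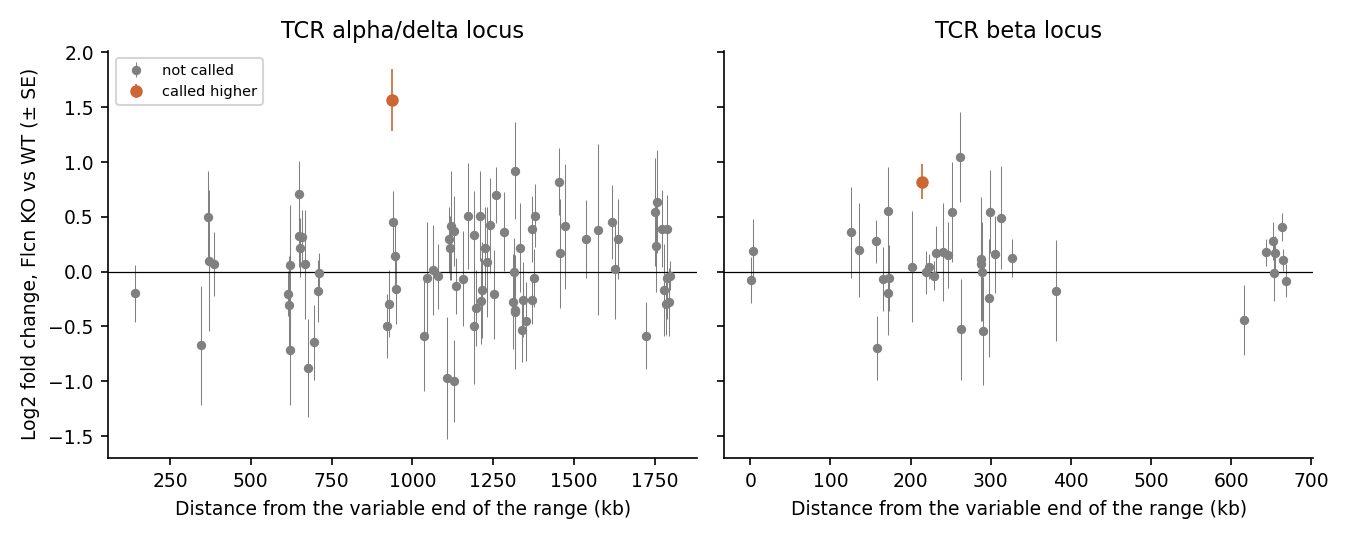
Log2 fold change of Flcn KO against WT (vertical axis, bars are ± SE) for the tested peaks of the TCR alpha/delta and TCR beta ranges by distance from the start of each range in kb, with called peaks in orange and others in grey. The points scatter around 0 along both loci, and 1 peak in each, at Trav13n-4 and near Trbv11, was called higher.

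TCR gamma held 7 peaks, 5 of them tested and 0 called. The sums were 47.5, 48.4, 47.9 and 38.1 CPM in WT against 47.5, 47.3, 48.2 and 50.3 in Flcn KO. WT replicate 4 was low and the other 7 libraries were close together. The strongest peak, chr13:19182240-19182710 by Trgv4, had 28.7 ± 6.20 against 27.8 ± 2.95 CPM (log2 fold change −0.05, SE 0.17). The peak by Trgv1 at 19339639 had 5.81, 3.57, 2.55 and 3.44 CPM in WT against 5.87, 6.95, 5.97 and 7.62 in Flcn KO. All its Flcn KO libraries were above the WT libraries, and the log2 fold change of 0.75 (by edgeR, SE 0.35 and adjusted p = 0.342) did not pass. The peaks by Trgv3 and Trgc1 had log2 fold changes of −0.07 and 0.29.

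Peaks of the genes that act on these loci were counted in the same fit, in which 1.35% of all tested peaks rose and 1.02% fell, and with lists of this size the counts below lie near those shares. Of the 14 genes of V(D)J recombination and end joining, such as Rag1, Dntt, which adds bases at the joints, and Lig4, which seals them, 13 had a tested peak and Rag2 had none. Their 36 tested peaks gave 0 calls in either direction and a median log2 fold change of −0.07. By edgeR 0 of them reached an unadjusted p below 0.05.

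Receptor partner chains, the CD3 and CD79 proteins and the surrogate light chains, had tested peaks at 7 of 11 genes, with none at Ptcra, Cd79b, Vpreb1 and Vpreb2. Of their 29 tested peaks 1 rose and 0 fell. It lay 1946 bp from Igll1, a surrogate light chain gene, at chr16:16865931-16866265. Its levels were 8.10, 5.35, 7.14 and 5.90 CPM in WT against 8.80, 10.7, 15.7 and 21.3 in Flcn KO. The groups did not overlap, and the log2 fold change was 1.05 (by edgeR, SE 0.28 and adjusted p = 0.0308). The CD3 genes, which T cells express, had 0 called peaks.

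Locus regulators, among them the loop-forming proteins Ctcf, Smc1a and Smc3 and the B lineage factors Pax5 and Ebf1, had tested peaks at 19 of 20 genes, with none at Rad21. Of 200 tested peaks 1 rose and 0 fell, with a median of 0.03. The peak that rose, chr16:92792953-92793246 by Runx1, a transcription factor of T cell development, had 2.08, 1.78, 1.53 and 0.492 CPM in WT against 3.91, 5.34, 6.22 and 4.57 in Flcn KO (log2 fold change 1.73 by edgeR, SE 0.47 and adjusted p = 0.0362). All Flcn KO libraries were above all WT libraries, at low levels in both groups.

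Around the other loci, 3 called peaks lay within 100 kb of a range, and all 3 were higher. Their nearest protein-coding gene was Rpia, an enzyme gene of the pentose phosphate pathway, between 21787 and 23356 bp away. The 3 peaks lay between 84.0 and 85.5 kb past the end of the kappa range, with log2 fold changes from 1.59 to 2.75. The other 9 tested peaks on that side, and the tested peaks beside the TCR loci, were not called.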

How the data were processed

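ATAC-seq libraries, 4 of WT and 4 of Flcn KO Treg cells, were grouped by their titles. The table the authors deposited holds unnormalized counts for each peak of a shared mm10 set. The submitters' processing notes name bedtools 2.25.0, MACS2 2.1.1, SAMtools 1.9, Picard 2.9.4, BWA 0.7.16 and Trimmomatic 0.36. Their roles, the treatment of duplicates and of reads matching several sites, any transposase shift, and the pooling of libraries for peak calling: each of these is not given in the sources used here. Between 88.7% and 92.7% of each library's counts were even, so both read ends were probably counted and fragments are fewer than counts.

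Starts, which count from 0 in the table, were converted to count from 1. Peaks were filtered with filterByExpr (minimum count 10, leaving 83.7%), scaled by TMM and tested with edgeR 4.0.16 (quasi-likelihood, robust, genotype only, R 4.3.3), with Benjamini-Hochberg adjustment over all tested peaks. Values are mean ± SD of CPM over 4 libraries. A negative log2 fold change means a lower value in Flcn KO. The scripts were tested on simulated data. The chi-square per peak between replicates was 2.18 to 3.56, so none was an identical copy of another of its group. Since both read ends were probably counted, these values show no more than that. Segments and genes were placed with a RefSeq table of GRCm38.p6, which gives no strand or exons; a peak was put with its nearest segment, or with a nearer protein-coding gene. Peaks of the gene lists were assigned to the nearest gene within 50 kb, and those of cell type markers within 10 kb.

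The receptor peaks, gene lists, tests and naming rule were chosen with earlier results of these data known. By that rule the text names called receptor peaks, the 3 strongest tested peaks and the 2 with the lowest p in each locus, and tested peaks within 1 kb of a constant segment; others are described as neighbours or copies of these. Alternatives were DESeq2 size factors and its Wald test (DESeq2 1.42.0), library size alone, no filter, at least 20 counts in at least 4 libraries, limma-voom (limma 3.58.1), a replicate block, halved counts, and leaving out each library. Peak sequences outside the RefSeq promoter windows were not analysed here. A gene of the marker lists is not reported here.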

Additional observations from a re-analysis of the deposited data

Results flagged for a closer look

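In 72 groups of 4 libraries, each a named peak or a locus sum in one genotype, 4 groups had 1 library far from the other 3, and chance alone gives about 1 in 20 groups. WT replicate 2 stood apart at the Ighv1-62-2 peak with 17.4 CPM, and that call was lost without it. Flcn KO replicate 4 was low at the Ighv1-70 peak with 9.91 CPM. Flcn KO replicate 1 was high at the Igkv8-31 peak of the kappa locus with 26.8 CPM. WT replicate 4 had the lowest summed level of TCR gamma, 38.1 CPM.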

How the results depend on the processing

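The count of 11 lower receptor peaks ranged from 3 to 13 when 1 library was left out. It came to 8 with limma-voom and to 10 with the DESeq2 Wald test. It came to 7 under the stricter filter, where 138 receptor peaks were tested, and to 8 with halved counts, where 134 were tested. With halved counts only 8 of the 11 had enough counts for a test, and these 8 stayed called. The heavy chain median stayed between −0.53 and −0.33 in all 16 alternatives. The 2 higher receptor peaks were called in each, with 2 to 5 higher peaks when 1 library was left out. Over all peaks the 1133 calls ranged from 665 to 1797 in those fits. Of the 13 called receptor peaks, 4 stayed called in every alternative fitted. Same-numbered libraries had correlations of deviations from −0.05 to 0.08, with 0 of 4 above 0.1. Between libraries of different number they reached 0.17 (WT replicate 2 with Flcn KO replicate 1) and −0.15 (WT replicate 3 with Flcn KO replicate 1). Such values cannot show whether libraries were handled together, and a shared batch was not tested. With the replicate block, 14 receptor peaks were lower, including all 11, 2 were higher, and 1375 peaks were called in all. Some peaks that were not called changed sign when 1 library was left out, with log2 fold changes from −0.21 to 0.18 at Trav11n, −0.13 to 0.073 at Trac, −0.030 to 0.14 at Trbv12-1, −0.20 to 0.028 at Trgv4, −0.082 to 0.55 at Trgc1, −0.34 to 0.15 at Trgv3 (0.020 with limma-voom), −0.23 to 0.074 at Ighv1-47, −0.14 to 0.10 at Ighv1-54, −0.38 to 0.93 at Igkv8-31, −0.14 to 0.019 at Igkv3-1 and −0.21 to 0.0097 at Igkj1. The cause was not tested. Peaks of a few CPM rest on few read pairs.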
